A study of Mus musculus with 18 samples.

Results

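Collagens, laminins and lysyl oxidases are the genes of the fibres, sheets and cross-links around the neurons, glia and vessels of the dorsal root ganglion (DRG), the cluster of sensory neuron cell bodies beside the spinal cord. The genes described here were chosen by symbol: every collagen alpha chain gene, every laminin alpha, beta or gamma chain gene, Lox, and Loxl1 to Loxl4. In all, 60 of the 22021 genes listed had such a symbol, and 52 of these were among the 14214 genes with a level of at least 1 CPM (counts scaled to 1000000 per library) in at least 4 of 16 libraries. They comprised 39 collagen genes, 8 laminin genes and 5 lysyl oxidase genes. The other 8 stayed under that minimum: Col4a6, Col6a4, Col10a1, Col17a1, Col20a1, Lama1, Lama3 and Lamb3. Their highest value in any library was 0.49 CPM for Col17a1, 0.67 for Col6a4, 2.08 for Col20a1, 2.29 for Lama3, 2.58 for Lamb3, 3.62 for Col10a1, 5.69 for Lama1 and 6.24 for Col4a6. Lamb3 reached 1 CPM in 2 libraries and Col10a1, Lama1, Lama3 and Col4a6 in 3, while Col6a6 just passed with 4 and Col11a2 with 5.

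Ganglia came from Nav1.8-trap mice, C57BL/6J animals of both sexes aged 8 to 12 weeks that carry Nav1.8cre and the Rosa26fsTRAP allele. In such mice the Scn10a (Nav1.8) promoter drives Cre, so that neurons with that sodium channel, mostly nociceptors, make the ribosomal protein L10a fused to EGFP. Each homogenate gave 200 µl of input and 800 µl for pulldown of tagged ribosomes with anti-GFP antibodies (translating ribosome affinity purification, TRAP). The 4 groups were the input and the pulldown of 4 normal biosamples, numbered 1 to 4, and of 4 biosamples from mice given paclitaxel, numbered 5 to 8. Paclitaxel, a chemotherapy drug that causes painful neuropathy, was injected intraperitoneally at 4 mg/kg in cremophor vehicle, 4 times within 8 days, 16 mg/kg in all. The labels describe vehicle dosing but call the other group normal, and do not say how many mice make up 1 biosample. All 16 libraries share the Cre and the tag, and p-values measure only the spread between these biosamples.

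As background, a collagen is a trimer of alpha chains: fibrillar collagens such as types I and III form the fibres of connective tissue, and collagen IV with laminins builds the basement membranes around Schwann cells, satellite glia and vessels. A laminin joins 1 alpha, 1 beta and 1 gamma chain, and lysyl oxidases oxidise lysines of collagen and elastin so that the fibres can be cross-linked. In peripheral nerve and ganglia, fibroblasts, Schwann cells and vessel cells are known as the main makers of these proteins.

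The start regions of 4 of these genes are shown because their levels are set side by side later on. They are RefSeq windows on GRCm38.p6, from 250 bases before to 50 bases after the annotated start, read 5′ to 3′ along each gene's own strand. Col1a2, chr6:4505368-4505667 on the plus strand, and Col3a1, chr1:45311288-45311587 on the plus strand, encode the second chain of collagen I and the chain of collagen III. Capitals mark CCAAT or TATAAA on either strand in these windows.
Col1a2: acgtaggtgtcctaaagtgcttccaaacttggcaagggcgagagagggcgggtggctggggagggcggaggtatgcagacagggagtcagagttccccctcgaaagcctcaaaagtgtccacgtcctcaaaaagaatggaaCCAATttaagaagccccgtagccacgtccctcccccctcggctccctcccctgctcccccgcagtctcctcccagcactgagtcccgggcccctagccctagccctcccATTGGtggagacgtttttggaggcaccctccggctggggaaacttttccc
Col3a1: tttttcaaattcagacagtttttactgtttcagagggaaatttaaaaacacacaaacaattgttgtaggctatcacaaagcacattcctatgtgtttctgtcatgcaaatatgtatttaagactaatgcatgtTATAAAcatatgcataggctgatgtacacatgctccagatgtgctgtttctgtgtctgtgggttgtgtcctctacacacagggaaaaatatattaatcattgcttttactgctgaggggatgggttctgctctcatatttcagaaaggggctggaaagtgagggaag
Col4a1 and Col4a2 encode the chains of the common collagen IV trimer and are transcribed away from each other, with annotated starts 21 bases apart. Their windows are chr8:11312777-11313076 on the minus strand and chr8:11312555-11312854 on the plus strand. Capitals mark the 78 bases of chr8:11312777-11312854 that both windows hold, in opposite orientation.
Col4a1: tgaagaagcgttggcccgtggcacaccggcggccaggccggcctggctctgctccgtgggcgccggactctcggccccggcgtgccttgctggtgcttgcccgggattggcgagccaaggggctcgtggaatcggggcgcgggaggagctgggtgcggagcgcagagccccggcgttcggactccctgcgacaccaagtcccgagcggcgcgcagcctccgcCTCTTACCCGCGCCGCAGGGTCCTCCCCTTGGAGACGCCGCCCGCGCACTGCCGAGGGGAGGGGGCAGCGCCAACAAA
Col4a2: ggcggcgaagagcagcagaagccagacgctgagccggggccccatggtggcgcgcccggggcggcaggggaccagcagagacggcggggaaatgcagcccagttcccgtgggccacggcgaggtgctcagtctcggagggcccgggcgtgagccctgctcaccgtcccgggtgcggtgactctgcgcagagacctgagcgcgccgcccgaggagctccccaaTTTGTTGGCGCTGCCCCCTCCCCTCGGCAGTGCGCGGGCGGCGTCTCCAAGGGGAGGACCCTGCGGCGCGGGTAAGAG
RefSeq windows were matched by symbol for 35 of the 52 tested genes, in 38 windows. CCAAT, on either strand, was in 12 of these 38 and in 37.4% of all 32851 windows of the same length; TATAAA was in 3 and in 13.6%. The letters GGGCGG, on either strand, were in 25 of the 38 and in 35.7% of all. These are letter matches and not sites.

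The libraries held 4266159 to 14478052 reads in inputs and 5972285 to 32713650 in pulldowns, estimated from the smallest step between values, and 3 reads were worth 0.0917 to 0.703 CPM. At 1 CPM, 13152 to 14043 genes were seen in inputs and 8081 to 13228 in pulldowns. Scn10a, the gene whose promoter drives Cre, was at 666 ± 248 CPM (SD, n = 4) in normal inputs and 1002 ± 338 in normal pulldowns, and at 562 ± 76.4 and 1405 ± 297 with paclitaxel. It read 443, 1013, 660 and 548 CPM in normal inputs 1 to 4 and 977, 1077, 1387 and 567 in their pulldowns, so biosamples 2 and 4 differed little. None of 10 pan-neuronal marker genes was at 0 throughout a group, and their summed level was 12148 to 19882 CPM over the 8 inputs. These mark neurons in general, so they cannot check the DRG label. The summed level of 12 nociceptor markers, Scn10a among them, was 4582 to 6804 CPM in normal and 4191 to 5503 in paclitaxel inputs. The pulldowns of biosamples 1, 2, 5 and 6 held the fewest of the 60 genes at 1 CPM, 23 to 29, against 36 to 46 in the other 4. Biosample 7 has 2 subsamples per fraction, averaged here, and its pulldown subsamples stood apart: 12 of the 60 genes reached 1 CPM in one and 40 in the other. Reads come from transcripts' 3′ ends and were not divided by length, so a CPM is a share of the reads and no length correction applies between genes.

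In whole ganglion the 60 genes took 0.202% to 0.411% of the reads of normal inputs and 0.308% to 0.458% of those of paclitaxel inputs. In pulldowns the share was 0.0643% to 0.124% for normal and 0.0562% to 0.118% for paclitaxel, below every input. Col1a1 and Col1a2, the chains of collagen I, alone made up 40.7% to 60.3% of these reads in the 8 inputs. They made up 32.8% to 46.5% in the 8 pulldowns. By mean CPM over the 8 inputs the order ran Col1a2, Col1a1, Col3a1, Col6a3, Lamb1, Col15a1, Lamc1 and Col4a1, from 940.2 for the first to 80.9 for the last. Neighbours in that order overlapped in their ranges over the inputs, except that every input of Col1a1 was above every input of Col3a1. All 52 tested genes reached 1 CPM in at least 4 inputs, 41 of them in all 8. By contrast, 12 genes reached it in all 8 pulldowns (Col1a1, Col1a2, Col3a1, Col4a1, Col4a2, Col5a1, Col6a3, Col11a1, Col15a1, Col25a1, Lama4 and Lamb1), and 3 reached it in no pulldown.

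**Figure D1:**
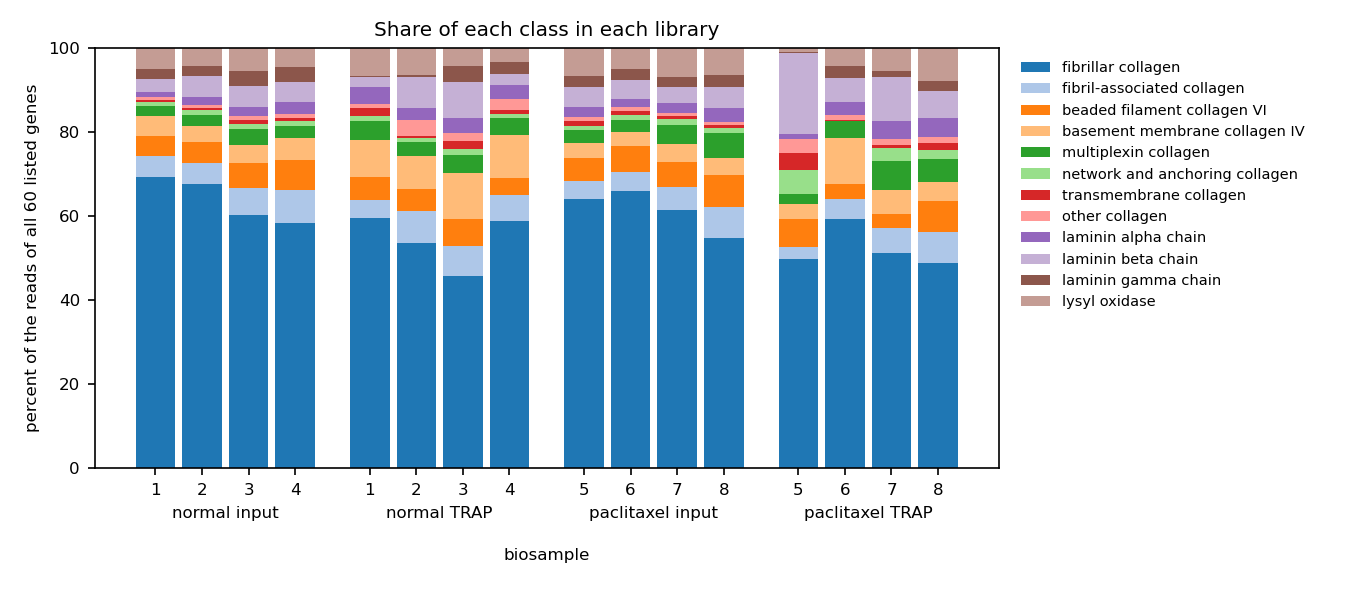
Percent of the reads of all 60 listed genes (y axis) in each structural class, for each of the 16 libraries by group and biosample (x axis). Fibrillar collagens held 54.8% to 69.3% in inputs and 45.7% to 59.4% in pulldowns, and the laminin beta chains reached 19.4% in the pulldown of biosample 5.

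The pulldown held less of these transcripts than the input of the same ganglia, in both treatments. Of the 52 genes, 20 were lower in normal pulldowns than in normal inputs and 0 were higher, at a Benjamini-Hochberg adjusted p under 0.05 from limma. Over all 14214 genes 24.7% were lower, 5.09% were higher and 29.8% passed in either direction. With paclitaxel 38 of the 52 were lower and 0 higher, where 23% of all genes were lower, 4.92% higher and 27.9% passed in either direction. The median log2 change of the 52 was -1.03 in normal and -1.86 in paclitaxel biosamples, beside -0.655 and -0.556 for all genes tested. A total of 17 genes passed in both treatments, which is 85.0% of the 20 and 44.7% of the 38. Neither count is a test of the genes as a group, because 19 of the 52 reached the minimum through the inputs, with fewer than 4 pulldowns at 1 CPM. Among the 33 that also reached 1 CPM in at least 4 pulldowns, 14 were lower in normal and 26 in paclitaxel pulldowns. The share of all genes under that stricter minimum is not given here, so these counts have no matching background.

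Biosample by biosample, 30 of the 52 genes were lower in the pulldown of all 4 normal biosamples, where 36.4% of all genes were. With paclitaxel 43 of the 52 were lower in all 4, where 36.5% of all genes were. A set of 27 was lower in all 8 biosamples, where 20.8% of all genes were. Input and pulldown of a biosample are aliquots of 1 homogenate and so come from the same cells. Between treatments, fewer cells of a type and less RNA per cell cannot be told apart in a bulk extract. Markers of cells that usually make matrix were measured in the same libraries. The marker counts below stand beside 24.7% of all genes lower and 5.09% higher in normal pulldowns. With paclitaxel these shares were 23% and 4.92%. The summed level of 12 fibroblast markers that hold no collagen was 1296 to 2956 CPM in normal inputs and 593 to 1097 in normal pulldowns, and 3423 to 4340 and 594 to 1440 with paclitaxel. No fibroblast marker was at 0 throughout a group, and 7 of the 12 passed as lower in normal and 11 in paclitaxel pulldowns. Of 16 myelinating Schwann cell markers 14 were lower in each treatment, of 12 satellite glia markers 9 in each, and of 12 endothelial markers 6 and 8, with 1 higher in normal pulldowns, Egfl7. Of 10 pericyte and smooth muscle markers 4 and 5 were lower, and of 10 macrophage markers 3 and 7. Other lists fell too: 7 of 8 skeletal muscle markers in each treatment, 5 and 6 of 7 fat markers, and 7 and 8 of 10 large-fibre neuron markers. Of 12 nociceptor markers 3 were higher and 2 lower in normal pulldowns, and 8 higher and 0 lower with paclitaxel. Of 10 pan-neuronal markers 3 were higher and 3 lower in normal pulldowns, and 4 higher and 3 lower with paclitaxel. The part of these cells in the values of the 52 genes was not tested.

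**Figure D2:**
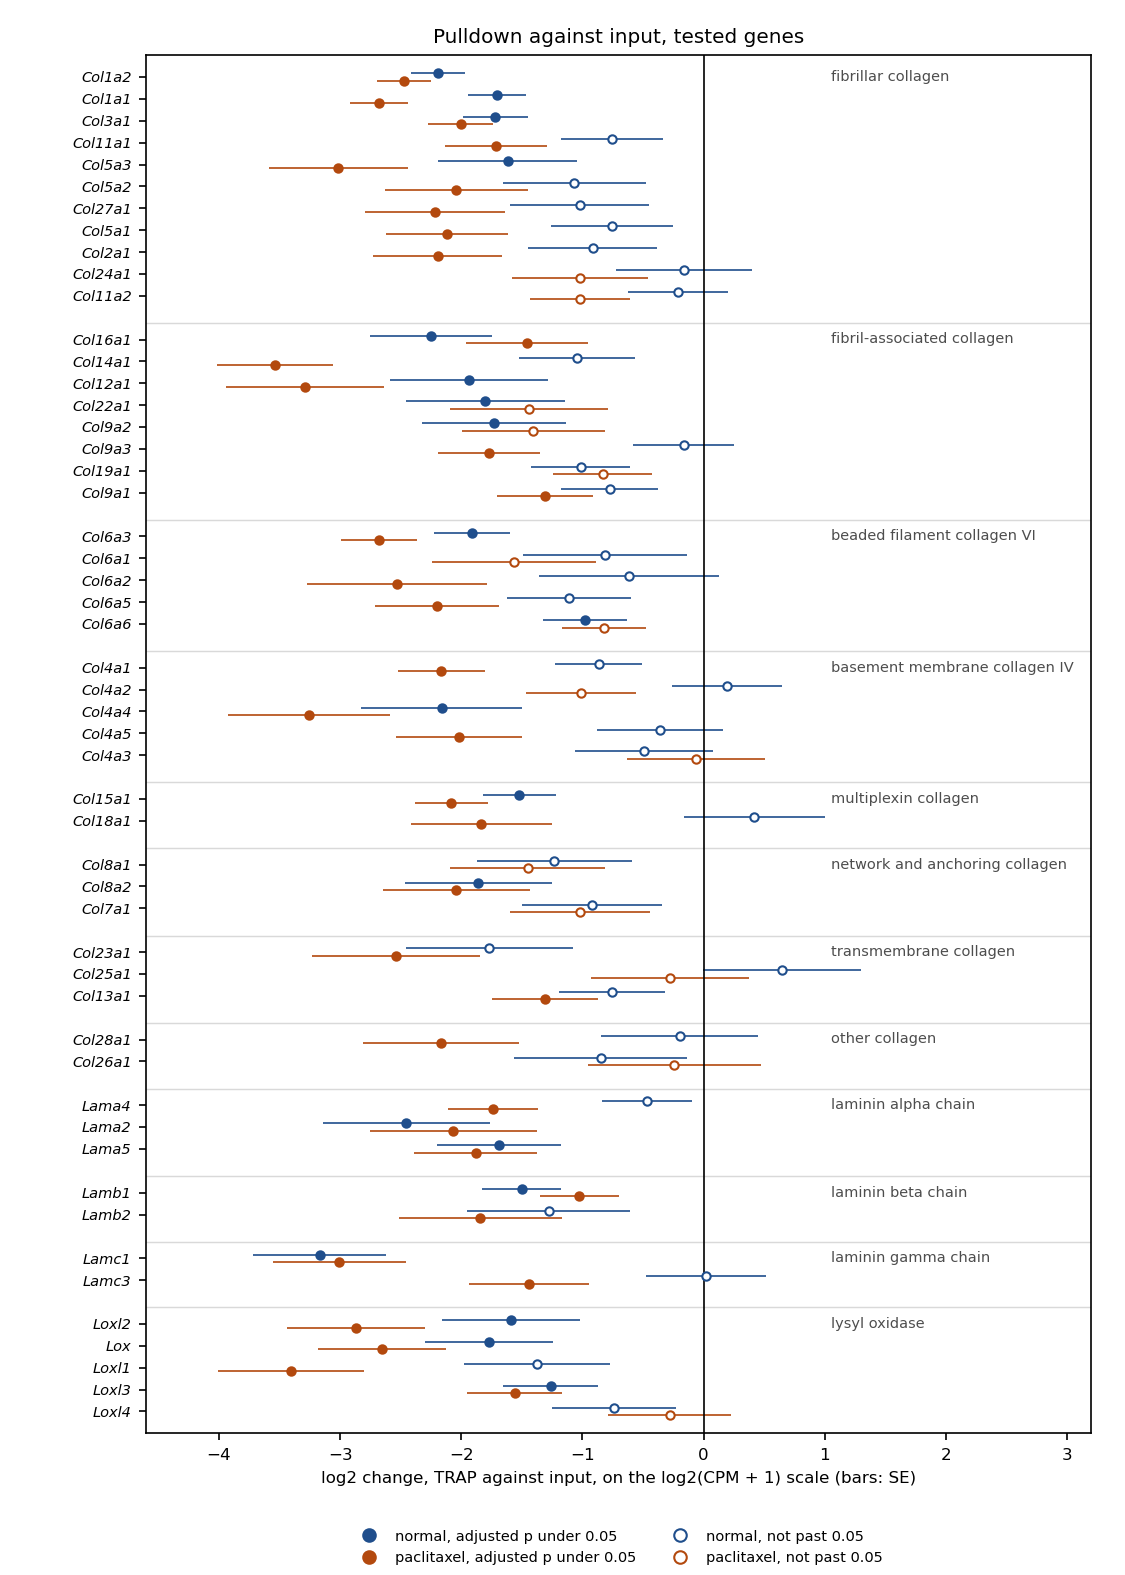
Log2 change of TRAP against input on the log2(CPM + 1) scale (x axis) for 51 of the tested genes (y axis, by class and then by mean input level), with SE bars; filled points passed an adjusted p of 0.05. All 51 paclitaxel estimates shown lie below 0, and 47 of the 51 normal estimates do. The median of all genes tested was also below 0, at -0.556 with paclitaxel and -0.655 in normal biosamples. Col4a5, Col9a1 and Col11a2 were at 0 in all paclitaxel pulldowns.

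The counts by class given from here on stand beside 24.7% of all genes lower in normal and 23% in paclitaxel pulldowns. Each class is small, and none was tested as a group. Fibrillar collagens are the chains of the tissue's main fibres. Of 11 tested, 4 were lower in normal pulldowns (Col1a1, Col1a2, Col3a1 and Col5a3) and 9 in paclitaxel pulldowns, Col11a2 and Col24a1 being the exceptions. Col1a2 read 1323, 668, 634 and 729 CPM in normal inputs 1 to 4 and 175, 209.9, 109 and 229.7 in their pulldowns. In paclitaxel inputs 5 to 8 it read 1050.3, 1116, 1242 and 759, and in their pulldowns 143, 193, 172 and 239. Every pulldown was thus below every input, and the gene fell by 2.19 ± 0.22 (SE) in log2 in normal and by 2.48 ± 0.22 in paclitaxel biosamples (limma adjusted p = 5.76e-07 and 1.4e-07). Col1a1, the partner chain, read 1154, 492, 439 and 663 CPM in normal inputs against 198, 240.2, 102 and 300.1 in their pulldowns. With paclitaxel it read 561, 597, 948 and 645 in inputs against 51.6, 89.4, 160.1 and 160.3 in pulldowns. Again no pulldown reached an input, and the log2 fall was 1.70 ± 0.24 in normal and 2.68 ± 0.24 in paclitaxel biosamples (limma adjusted p = 2.18e-05 and 1.3e-07).

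Col3a1, the chain of collagen III that co-assembles with collagen I, read 147, 99.2, 123 and 104 CPM in normal inputs and 36.3, 51.7, 17.1 and 45.2 in normal pulldowns. In paclitaxel biosamples the values were 172, 188, 378 and 291 in inputs and 43.4, 46.5, 80.4 and 80.2 in pulldowns. The fractions did not overlap within a treatment, and the log2 change was -1.72 ± 0.27 and -2.01 ± 0.27 (adjusted p = 7.93e-05 and 2.26e-05). Col5a3, a minor chain of collagen V, which helps to start collagen I fibrils, read 32.1, 16.9, 32.7 and 46.2 CPM in normal inputs and 5.69, 4.44, 16.7 and 15.6 in normal pulldowns. After paclitaxel the gene was at 61.9, 49.5, 53.2 and 50.3 in inputs and 12.2, 0.06, 4.91 and 24 in pulldowns, the pulldown of biosample 6 being lowest. Its log2 change was -1.61 ± 0.57 (adjusted p = 0.0367, lost without biosample 1, 2, 3 or 4) and -3.02 ± 0.57 (adjusted p = 0.00081). Col5a1 and Col5a2, the major chains of collagen V, and Col11a1 and Col27a1 passed as lower in paclitaxel pulldowns, with -2.12 ± 0.50, -2.04 ± 0.59, -1.72 ± 0.42 and -2.22 ± 0.57. Their normal estimates, -0.75 ± 0.50, -1.07 ± 0.59, -0.76 ± 0.42 and -1.02 ± 0.57, did not pass, and the difference between treatments did not pass for any of them. The paclitaxel calls of Col11a1 and Col27a1 were lost without biosample 5, and that of Col5a2 without biosample 6. Col2a1, the cartilage collagen, was low throughout; it passed with paclitaxel, from inputs of 3.58, 6.47, 4.35 and 2.45 CPM and pulldowns of 0, 0, 0.045 and 0.38.

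**Figure D3:**
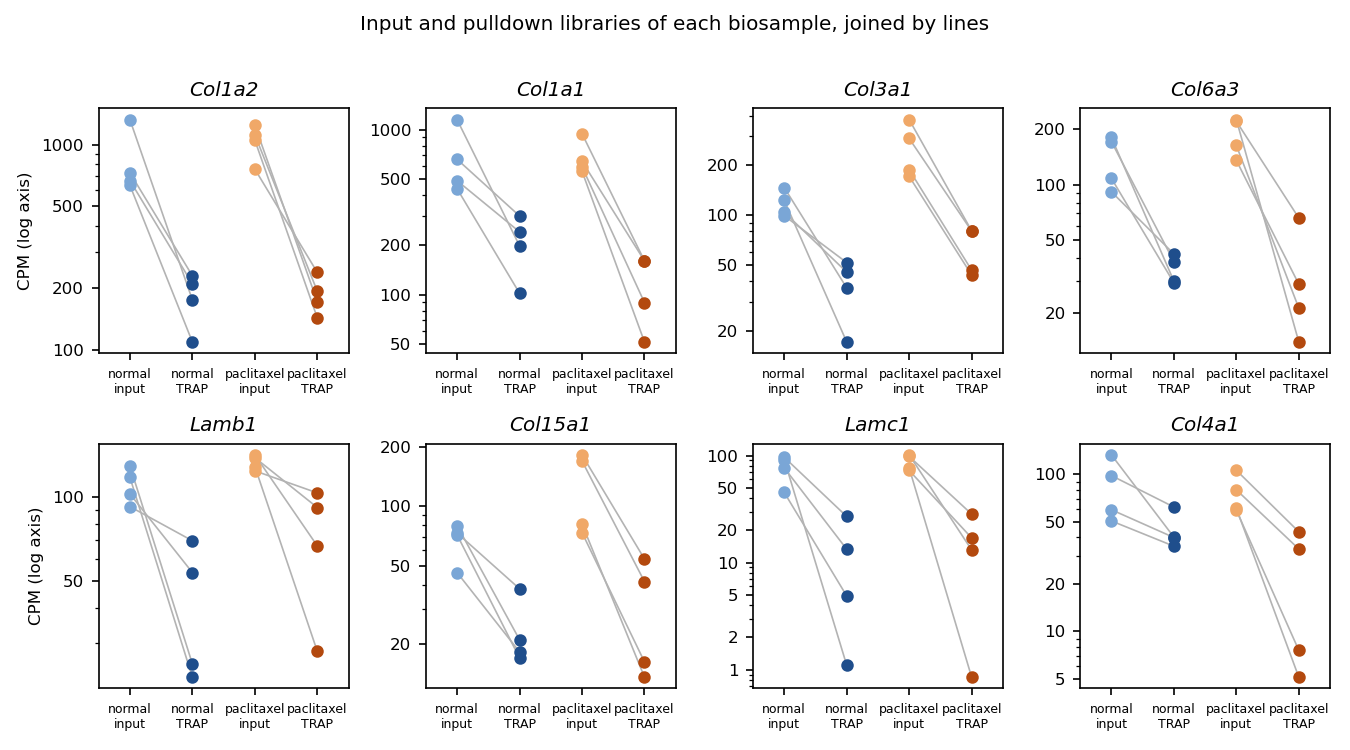
CPM on a log axis for the 8 genes with the highest mean input level, for the 4 libraries of each group; lines join input and pulldown of 1 biosample. Pulldown lay below input for all 8 biosamples in each of the 8 panels.

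Fibril-associated collagens sit on the surface of collagen fibrils. In normal pulldowns 4 of 8 tested were lower (Col9a2, Col12a1, Col16a1 and Col22a1), and in paclitaxel pulldowns 5 (Col9a1, Col9a3, Col12a1, Col14a1 and Col16a1). Over all genes 24.7% and 23% were lower. Col16a1 read 43.1, 29.1, 55.2 and 116 CPM in normal inputs and 0.45, 22.4, 24.2 and 18.9 in normal pulldowns, of which the pulldown of biosample 1 was far below the rest. The paclitaxel biosamples gave 46.2, 41.5, 102 and 121 in inputs and 13, 28.4, 24.4 and 41.1 in pulldowns. The fractions did not overlap within either treatment, and the gene fell by 2.25 ± 0.50 and 1.46 ± 0.50 in log2 (adjusted p = 0.00222 and 0.0336); the second call was lost without biosample 5, 7 or 8. Col14a1, which binds fibrils through decorin, read 91.5, 35.9, 43.9 and 69.6 CPM in normal inputs and 36.9, 24.4, 15.6 and 36.8 in normal pulldowns, ranges that overlap. In paclitaxel inputs it read 48.2, 51.6, 76.5 and 64.9, and in their pulldowns 2.29, 0.06, 9.88 and 18, with biosamples 5 and 6 lowest. Its log2 change was -1.04 ± 0.48 in normal (adjusted p = 0.0988) and -3.54 ± 0.48 in paclitaxel biosamples (adjusted p = 2.29e-05).

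Col12a1, a relative of Col14a1, read 41.5, 21.3, 31.4 and 28.1 CPM in normal inputs and 3.24, 27.1, 2.53 and 8.87 in normal pulldowns, where biosample 2 stood highest. With paclitaxel it read 24.3, 36.9, 56.5 and 49 in inputs and 0.79, 0, 8.88 and 16 in pulldowns. It fell by 1.94 ± 0.66 in log2 in normal biosamples (adjusted p = 0.0296, lost without biosample 1, 3 or 4) and by 3.29 ± 0.66 with paclitaxel (adjusted p = 0.00116). The collagen IX chains, best known from cartilage, and Col19a1 and Col22a1 were low, with no input above 9.85 CPM. In normal biosamples the call of Col9a2 was lost without biosample 1 or 4, and that of Col22a1 without biosample 1, 2 or 3. The paclitaxel call of Col9a1 was lost without biosample 6 or 7. Col9a1 was listed at 0 in all 4 paclitaxel pulldowns, so no fold is printed for it there.

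Collagen VI forms beaded filaments near basement membranes. Its Col6a3 chain read 172, 91.6, 108 and 181 CPM in normal inputs and 38.3, 42.1, 29.3 and 30.0 in their pulldowns. In paclitaxel biosamples the values were 136, 164, 226 and 221 in inputs and 28.8, 21.4, 14 and 66 in pulldowns. No pulldown reached an input, and the log2 fall was 1.91 ± 0.31 and 2.68 ± 0.31 (adjusted p = 0.000128 and 4.03e-06). Of the chains that join it in the trimer, Col6a1 gave -0.81 ± 0.68 and -1.56 ± 0.68, passing in neither treatment, and Col6a2 gave -0.61 ± 0.74 and -2.53 ± 0.74, passing with paclitaxel. The call of Col6a2 was lost without biosample 5 or 6. Col6a5 passed with paclitaxel (-2.20 ± 0.51). Col6a6 passed in normal biosamples from inputs of 1.32, 0.47, 0.9 and 1.41 CPM and pulldowns of 0, 0.04, 0 and 0, all under the worth of 3 reads, so no fold is printed for it. Its call was lost without biosample 1, 3 or 4.

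Of 5 basement membrane collagen IV chains tested, 1 was lower in normal pulldowns (Col4a4) and 3 in paclitaxel pulldowns (Col4a1, Col4a4 and Col4a5). Over all genes 24.7% and 23% were lower. Col4a1 read 133, 50.5, 59.5 and 98.2 CPM in normal inputs and 39.9, 34.9, 39.6 and 62 in normal pulldowns, with overlapping ranges. After paclitaxel the gene was at 60.8, 59.2, 106 and 79.7 in inputs and 5.11, 7.58, 43.1 and 33.5 in pulldowns, with no overlap. The log2 change was -0.87 ± 0.36 (adjusted p = 0.0681) and -2.16 ± 0.36 (adjusted p = 0.000222). Col4a2, whose start lies 21 bases from that of Col4a1 as shown above, read 54.8, 21.3, 24 and 36.6 CPM in normal inputs and 44.4, 45.1, 22.8 and 39.2 in normal pulldowns. The paclitaxel biosamples gave 26.1, 24, 55.8 and 33 in inputs and 11.5, 43.2, 7.79 and 15.3 in pulldowns, and the fractions overlapped in both treatments. Its log2 change of 0.19 ± 0.45 (95% interval -0.74 to 1.12) in normal and -1.01 ± 0.45 (-1.94 to -0.08) in paclitaxel biosamples passed in neither.

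Within a library, the ratio of Col4a1 to Col4a2 was narrow in inputs, 2.37 to 2.69 in normal and 1.90 to 2.46 in paclitaxel. It was lower in the pulldown than in the input of 7 of 8 biosamples. The normal pulldowns ran from 0.773 to 1.74 and the paclitaxel pulldowns from 0.175 to 5.53, biosample 7 being the one above its input. The 3′ end of Col4a1 has another annotated gene, Gm15418, on the opposite strand close by. Col4a4, a chain of the collagen IV of kidney and some other membranes, read 10.9, 4.47, 8.63 and 12.9 CPM in normal inputs and 0.15, 0.34, 0 and 13.1 in normal pulldowns, where biosample 4 alone was at the input level. With paclitaxel it read 14.8, 12.4, 19.6 and 18.1 in inputs and 0, 0.06, 2.04 and 2.08 in pulldowns. Its log2 change was -2.16 ± 0.66 (adjusted p = 0.0182, lost without biosample 1 or 3) and -3.26 ± 0.66 (adjusted p = 0.00142). Col4a5 was listed at 0 in all 4 paclitaxel pulldowns, against 2.25 to 4.31 CPM in their inputs.

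Col15a1 and Col18a1 are the multiplexins, basement membrane collagens that carry glycan chains; the end of the Col18a1 protein is released as endostatin. Col15a1 read 79.7, 46.1, 71.6 and 73.1 CPM in normal inputs and 21.1, 18.3, 17.1 and 38.2 in normal pulldowns. In paclitaxel biosamples the values were 81.2, 73.5, 182 and 169 in inputs, those of biosamples 7 and 8 standing above the rest, and 13.6, 16.3, 54 and 41.5 in pulldowns. The fractions did not overlap in either treatment, with falls of 1.52 ± 0.30 and 2.08 ± 0.30 in log2 (adjusted p = 0.000786 and 4.99e-05). Col18a1 went the other way in normal biosamples by its estimate, 0.42 ± 0.58 (adjusted p = 0.598), and fell by 1.84 ± 0.58 with paclitaxel (adjusted p = 0.0222, lost without biosample 5 or 7). Its 3′ end meets that of Slc19a1, a more abundant gene on the opposite strand at a mean of 97.9 CPM, and with the strand setting not given its reads are uncertain.

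Among the remaining collagens, Col8a1 of the endothelial network read 28.2, 17.3, 15 and 22 CPM in normal inputs and 10.7, 11.3, 4.03 and 7.87 in normal pulldowns. After paclitaxel the gene was at 19.9, 26.4, 43.4 and 27.4 in inputs and 26.5, 0, 22.3 and 19.1 in pulldowns. The normal fractions did not overlap and the paclitaxel ones did, and neither change passed (-1.23 ± 0.64 and -1.45 ± 0.64). Its partner chain Col8a2 passed in both treatments (-1.86 ± 0.61 and -2.04 ± 0.61), calls lost without biosample 1, 2 or 3 in normal and without 5 or 6 in paclitaxel biosamples. The transmembrane Col13a1 passed with paclitaxel, a call lost without biosample 5, 6 or 7; it read 1.23, 2.51, 3.89 and 4.28 CPM in inputs and 0, 0, 0 and 4.35 in pulldowns, so that biosample 8 was above its input. Col23a1, also transmembrane, read 12.8, 5.33, 12.5 and 13.1 CPM in normal inputs, 6.44, 0.82, 2.89 and 1.34 in normal pulldowns, 27.1, 18.5, 25 and 20.0 in paclitaxel inputs and 13.6, 0, 0.885 and 8.51 in paclitaxel pulldowns. It fell by 2.54 ± 0.69 in log2 with paclitaxel (adjusted p = 0.00918, lost without biosample 6 or 7), and its normal change of -1.77 ± 0.69 had an adjusted p of 0.0548. Col28a1, known from the nodes of Ranvier and the glia of peripheral nerve, read 19.8, 11.8, 20.0 and 25.1 CPM in normal inputs and 9.33, 38.3, 7.54 and 23.4 in normal pulldowns, fully overlapping. The paclitaxel biosamples gave 23.7, 22.3, 23.1 and 18.1 in inputs and 0, 6.63, 4.74 and 13.9 in pulldowns, with no overlap, and the gene fell by 2.17 ± 0.65 in log2 (adjusted p = 0.016, lost without biosample 5).

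Col25a1, a transmembrane collagen, is a neuronal protein, known in mice for its part in motor innervation of muscle and, in human brain, for its presence in amyloid plaques. It read 5.84, 1.41, 8.22 and 7.27 CPM in normal inputs and 12.1, 3.28, 10.1 and 11.2 in their pulldowns, each pulldown above its own input. With paclitaxel it read 7.97, 10.4, 3.93 and 4.59 in inputs and 10.2, 1.5, 5.02 and 6.81 in pulldowns, the pulldown being lower in biosample 6 alone. It was the one tested gene of the 52 that was lower in the pulldown of only 1 of 8 biosamples. Its log2 change, 0.65 ± 0.65 in normal (95% interval -0.70 to 1.99) and -0.28 ± 0.65 in paclitaxel biosamples (-1.62 to 1.07), passed in neither. Col26a1, Col24a1, Col7a1, Col11a2, Col19a1 and Col4a3 also passed in neither treatment, all with no input above 6.39 CPM. Col25a1 was named after its values were seen.

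The laminin chains Lama2, Lama5, Lamb1 and Lamc1 were lower in the pulldowns of both treatments, and Lama4, Lamb2 and Lamc3 in those of paclitaxel. Among the alpha chains, Lama2, the chain of muscle and Schwann cell laminin, read 11.9, 7.45, 10.4 and 15.5 CPM in normal inputs and 0.1, 0.78, 0.98 and 4.86 in normal pulldowns. In paclitaxel biosamples the values were 21.6, 17.3, 25.5 and 26.3 in inputs and 0, 9.72, 8.05 and 9.08 in pulldowns. Fractions did not overlap in either treatment, and the gene fell by 2.46 ± 0.69 (adjusted p = 0.011, lost without biosample 1) and 2.06 ± 0.69 in log2 (adjusted p = 0.0289, lost without biosample 5 or 7). Lama4, the chain of vessel laminin, read 36.5, 29.5, 32.5 and 64.9 CPM in normal inputs and 39, 27.1, 21.2 and 26.6 in normal pulldowns, with overlap. In paclitaxel inputs it read 49, 41.1, 83.1 and 77, and in pulldowns 7.4, 9.05, 31.4 and 40.4, all below the inputs. The normal change of -0.47 ± 0.37 did not pass and the paclitaxel change of -1.73 ± 0.37 did (adjusted p = 0.338 and 0.00199). Lama5 passed in both, at -1.69 ± 0.51 and -1.88 ± 0.51, from inputs of at most 5.66 CPM. Its normal call was lost without biosample 1 or 2, and its paclitaxel call without biosample 6. The beta chain Lamb2 passed with paclitaxel, at -1.84 ± 0.67, a call lost without biosample 3, 4, 5, 6, 7 or 8. The gamma chain Lamc3 passed there too, a call lost without biosample 5, 6 or 7, from inputs of 2.15, 2.83, 1.62 and 1.53 CPM and pulldowns of 0, 0, 0 and 0.47.

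Lamb1, the common beta chain, read 118, 92.7, 103 and 129.9 CPM in normal inputs and 22.5, 69.8, 53.6 and 25.1 in normal pulldowns. After paclitaxel the gene was at 125, 129, 139 and 142 in inputs and 104, 27.9, 91.9 and 66.8 in pulldowns. It fell by 1.5 ± 0.33 and by 1.03 ± 0.33 in log2 (adjusted p = 0.00184 and 0.0226), and the paclitaxel call was lost without biosample 6 or 8. Lamc1, the gamma chain that pairs with it in most laminins, read 91.7, 45.2, 76.7 and 96.3 CPM in normal inputs and 1.1, 4.88, 13.3 and 27 in normal pulldowns. The paclitaxel biosamples gave 76.3, 72.5, 101 and 98.1 in inputs and 0.85, 17, 13.1 and 28.4 in pulldowns. Here the pulldowns were lowest in biosamples 1 and 5, and the gene fell by 3.17 ± 0.55 and by 3.01 ± 0.55 in log2, at adjusted p = 0.000209 and 0.000532. The ratio of Lamb1 to Lamc1 was 1.29 to 2.05 over the 8 inputs and higher in the pulldown in 6 of 8 biosamples, up to 122 in that of biosample 5, where Lamc1 was at 0.85 CPM.

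All 5 lysyl oxidases were tested, and 3 were lower in normal pulldowns (Lox, Loxl2 and Loxl3) and 4 in paclitaxel pulldowns (Lox, Loxl1, Loxl2 and Loxl3). Over all genes 24.7% and 23% were lower. Lox, the enzyme the family is named for, was at 46.4 to 159.6 CPM in normal inputs and 3.87 to 48.5 in normal pulldowns, and at 34.4 to 85.3 and 0.13 to 17.5 with paclitaxel. It fell by 1.77 ± 0.53 (adjusted p = 0.015, lost without biosample 1 or 3) and 2.66 ± 0.53 in log2 (adjusted p = 0.0011). Loxl1, which acts on elastic fibres, read 29.1, 17.3, 28.3 and 44.5 CPM in normal inputs and 14.9, 5.52, 13.1 and 10.1 in normal pulldowns. With paclitaxel it read 31.8, 31.9, 45.2 and 42.5 in inputs and 0.13, 0, 9.36 and 13.8 in pulldowns, so that biosamples 5 and 6 were near or at 0. The change was -1.38 ± 0.60 in normal (adjusted p = 0.0837) and -3.40 ± 0.60 in paclitaxel biosamples (adjusted p = 0.000401). Loxl2, whose values by library are given with the drug comparison, fell by 1.59 ± 0.57 (adjusted p = 0.038, lost without biosample 1, 3 or 7) and by 2.87 ± 0.57 in log2 (adjusted p = 0.00112). Loxl3 and Loxl4 had no input above 2.98 CPM, and the 3′ end of Loxl3 meets Htra2 on the opposite strand. The normal call of Loxl3 was lost without biosample 1 or 4.

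The calls rested to a different degree on single biosamples. Without biosample 1 the count in normal pulldowns went from 20 to 8, and without biosample 3 to 13. Over all 14214 genes the calls in either direction went from 4233 to 2327 and 3029. Of these calls 17.1%, 20.4% and 17.6% were higher and the rest lower. The 8 genes kept in every fit that left out 1 biosample were Col1a1, Col1a2, Col3a1, Col6a3, Col15a1, Col16a1, Lamb1 and Lamc1, and the same 8 passed under each of the other settings tried. With paclitaxel 21 of 38 were kept in every such fit, and 15 under each setting: Col1a1, Col1a2, Col3a1, Col4a1, Col4a4, Col5a3, Col6a3, Col12a1, Col14a1, Col15a1, Lama4, Lamc1, Lox, Loxl1 and Loxl2. The pulldowns of biosamples 1, 2, 5 and 6 held the fewest of the 60 genes at 1 CPM, with the subsamples of biosample 7 averaged. In 1 pulldown subsample of biosample 7 alone, 12 of the 60 reached it, fewer than in any of these pulldowns. Without biosamples 1, 2, 5 and 6, and with biosample 7 kept, 15 and 21 genes were lower. Over all genes 2393 and 1845 then passed in either direction, 22.1% and 22.3% of them higher. Quantile normalization left 9 and 25 lower and 0 higher, and median-ratio scaling 12 and 31 lower and 0 higher. Over all genes, quantile normalization left 2558 and 2741 calls in either direction, 46% and 42.4% of them higher. Median-ratio scaling left 3118 and 3217, of which 45.1% and 39.3% were higher. The 3 genes at 0 in all paclitaxel pulldowns (Col4a5, Col9a1 and Col11a2) have no fold there, and the paclitaxel median of the other 49 was -1.88.

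Paclitaxel was next compared with normal in the inputs, which asks whether matrix transcripts of the whole ganglion differ after the drug. Loxl2 and Lamb2 were higher in paclitaxel inputs, and these 2 of 52 genes stand beside 1.46% of all genes higher and 1.64% passing in either direction. Loxl2, which cross-links collagen IV among other substrates, read 16.1, 14, 45.5 and 13.6 CPM in normal inputs and 127, 90.0, 179 and 108 in paclitaxel inputs. Its lowest paclitaxel input lay above its highest normal input, that of biosample 3, and the means were 22.3 ± 15.5 and 126 ± 38.6 CPM (SD, n = 4). The log2 rise was 2.59 ± 0.34 (limma adjusted p = 0.00615). Without biosample 1 it passed no longer, at an adjusted p of 0.0502, nor with no filter (0.0768). In both of these settings 0 of all genes passed between inputs, and the Loxl2 estimates were 2.51 and 2.59. In pulldowns Loxl2 read 0.2, 18.1, 10.7 and 6.86 CPM in normal and 5.04, 9.05, 22.4 and 55.8 in paclitaxel libraries, which overlap, and the change of 1.31 ± 1.00 (95% interval -0.83 to 3.46) did not pass. Annotated on Loxl2 (chromosome 14, 69609068 to 69695834, plus strand, GENCODE vM21) are also Mir6950 and 2 opposite-strand genes, Gm27177 and Gm37513.

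Lamb2, the beta chain of synaptic and kidney laminin, also made by Schwann cells, read 7.3, 4.86, 7.67 and 10.1 CPM in normal inputs and 20.1, 13.8, 34.9 and 29.2 in paclitaxel inputs. No library of one group reached the other, with means of 7.48 ± 2.14 and 24.5 ± 9.37 CPM. The rise of 1.55 ± 0.31 in log2 passed at an adjusted p of 0.0268; it passed no longer without biosample 1, 5, 7 or 8, at adjusted p = 0.0929, 0.072, 0.145 and 0.115, nor with quantile normalization (0.059) or no filter (0.113). In pulldowns it read 0.2, 7.16, 0.88 and 6.36 CPM in normal and 4.98, 7.12, 3.53 and 8.32 in paclitaxel libraries, and the change was 0.98 ± 0.90 (adjusted p = 0.634). Lamb2, at chromosome 9, 108479736 to 108490530 on the plus strand, overlaps no other annotated gene.

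**Figure D4:**
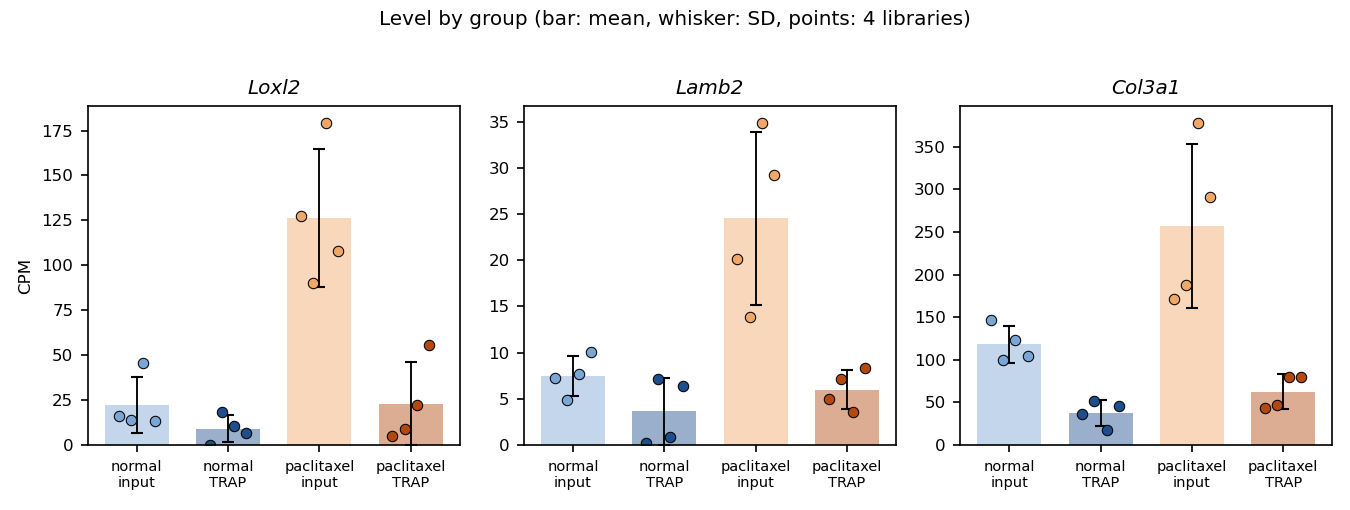
CPM (y axis) of Loxl2, Lamb2 and Col3a1 in the 4 groups (x axis); bars are means, whiskers SD and points the 4 libraries. In each panel all 4 paclitaxel inputs lie above all 4 normal inputs, while the pulldowns overlap.

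Beyond these, 44 of the 52 estimates were above 0 in inputs, the median being 0.324 beside 0.143 for all genes. In 11 genes (Col3a1, Col5a3, Col6a2, Col8a2, Col9a3, Col18a1, Col23a1, Lama2, Lamb2, Lamc3 and Loxl2) all 4 paclitaxel inputs lay above all 4 normal inputs, where 8.16% of all genes did. In 0 of 52 did they lie below, where 3.14% of all genes did. Col3a1 had means of 118 ± 21.6 and 257 ± 96.5 CPM and a log2 change of 1.06 ± 0.25, which missed the threshold (adjusted p = 0.0507), while Col1a1 and Col1a2 gave 0.08 ± 0.29 and 0.36 ± 0.27. Lox, the relative of Loxl2, gave -0.45 ± 0.36. Marker levels differed between the same inputs. The summed fibroblast markers were 1296 to 2956 CPM in normal and 3423 to 4340 in paclitaxel inputs, the summed fat markers 228 to 478 and 530.2 to 759, and the pan-neuronal markers 16625 to 19882 and 12148 to 14289. None of the fibroblast or pan-neuronal markers was at 0 throughout a group, and of 8 fat markers 1, Lep, was at 0 in all normal inputs. Over all genes 1.46% were higher in paclitaxel inputs. Of the markers themselves, 0 of 12 fibroblast, 2 of 7 fat, 2 of 12 satellite glia, 1 of 12 endothelial (Kdr), 1 of 10 macrophage (Lyz2) and 0 of 16 Schwann cell markers passed as higher, and 1 of 10 pan-neuronal markers (Uchl1) as lower. Their part in the values of Loxl2, Lamb2 and the other genes was not tested.

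Ratios within a library do not depend on the scaling between libraries. Col3a1 stood at 0.127 to 0.280 of Col1a1 in normal inputs and 0.306 to 0.451 in paclitaxel inputs. In pulldowns it stood at 0.151 to 0.215 and 0.500 to 0.843, so that in neither fraction did the treatments overlap. Col1a2 stood at 1.10 to 1.44 times Col1a1 in normal inputs and 1.18 to 1.87 times in paclitaxel inputs, with overlap. In normal biosamples it was lower in all 4 pulldowns, at 0.766 to 1.07, and in paclitaxel pulldowns it ran from 1.07 to 2.78. Loxl2 was 0.101 to 0.981 of Lox in normal inputs and 1.66 to 3.01 times Lox in paclitaxel inputs; in pulldowns the ratio was 0.00412 to 2.76 and 0.517 to 38.8, which overlap. These pairs were picked after their values were seen and carry no test.

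**Figure D5:**
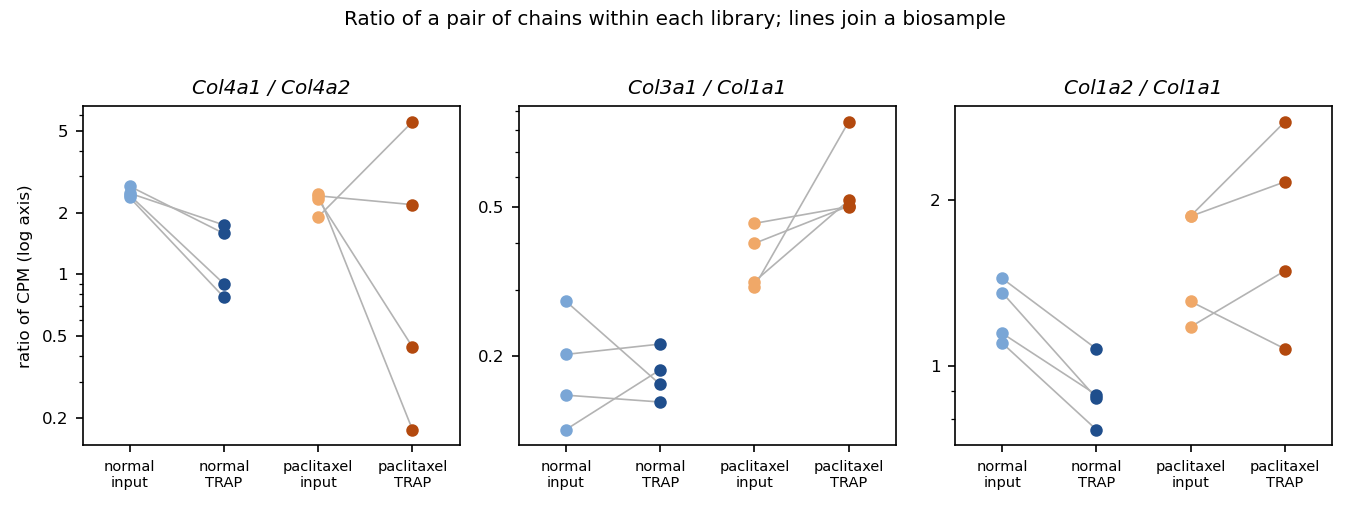
Ratio of CPM within each library on a log axis (y axis) for Col4a1 to Col4a2, Col3a1 to Col1a1 and Col1a2 to Col1a1, by group (x axis); lines join input and pulldown of 1 biosample. Paclitaxel libraries lie above normal ones for Col3a1 to Col1a1 in both fractions.

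In the pulldowns, 0 of the 52 genes differed between paclitaxel and normal in limma, where 1.82% of all genes did. At an unadjusted p under 0.05 there were 4, where 16.9% of all genes were, led by Col14a1 at -2.43 ± 0.90 (95% interval -4.37 to -0.49, adjusted p = 0.186). In 0 of the 52 did all 4 paclitaxel pulldowns lie above all normal ones, where 6.73% of all genes did, and in 0 did they lie below, where 3.57% did. Estimates were above 0 for 19 of the 52, and the median was -0.262 beside 0.168 for all genes. Fibroblast markers summed to 593 to 1097 CPM in normal and 594 to 1440 in paclitaxel pulldowns, none of the 12 passing. The pan-neuronal markers summed to 24280 to 44805 and 15155 to 22120 CPM, with no overlap and none of the 10 passing. The nociceptor markers summed to 7541 to 9962 and 7562 to 9327 CPM, with overlap. The part of these markers in the values of the 52 genes was not tested.

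Whether the change from input to pulldown itself differed between treatments was tested by the interaction. It passed for 0 of the 52 genes, where 0.19% of all genes passed, and 10 had an unadjusted p under 0.05, where 11.3% of all genes did. The lowest p was that of Col14a1, at -2.50 ± 0.68 (95% interval -3.90 to -1.10, adjusted p = 0.119). Col1a1 followed at -0.97 ± 0.34 and Col18a1 at -2.26 ± 0.82, while Col1a2 gave -0.28 ± 0.32. Of the 52 estimates 41 were below 0, with a median of -0.832 beside 0.0174 for all genes. The larger count of lower genes with paclitaxel, 38 against 20, is therefore not shown to be a difference between treatments for any single gene.

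Genes that modify, process or bind these proteins were read from lists chosen with earlier results of these data known. The list counts given from here on stand beside 24.7% of all genes lower and 5.09% higher in normal pulldowns. With paclitaxel these shares were 23% and 4.92%. No list was tested as a group. Of 21 collagen modification and folding genes, 1 rose and 10 fell in normal pulldowns, and 0 and 7 with paclitaxel. Serpinh1, the collagen chaperone HSP47, fell by 2.06 ± 0.27 in log2 in normal and by 2.06 ± 0.27 in paclitaxel biosamples (limma adjusted p = 1.25e-05 and 1.96e-05). Crtap, a partner in proline hydroxylation, fell by 2.53 ± 0.71 in normal biosamples, and Fkbp10, a prolyl isomerase, fell by 3.66 ± 0.59 with paclitaxel. Plod3, a lysyl hydroxylase that also glycosylates collagen, rose by 1.42 ± 0.38 in normal biosamples (adjusted p = 0.00825). Of 7 procollagen processing genes tested, 2 and 3 fell. One of them, Adamts2, which removes the N-terminal propeptide, gave -2.24 ± 0.60 and -1.84 ± 0.60.

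Receptors for collagen and laminin split. Of 15 tested, 2 rose and 7 fell in normal pulldowns, and 1 rose and 9 fell with paclitaxel. Bcam, a receptor for laminin alpha 5, rose by 1.31 ± 0.36 and 1.55 ± 0.36 in log2 (limma adjusted p = 0.00955 and 0.00352). Itgb1, the shared beta 1 integrin, rose by 1.27 ± 0.18 in normal biosamples (adjusted p = 1.81e-05). Dag1, the dystroglycan precursor, fell by 2.75 ± 0.42 and 1.28 ± 0.42, and Itgb4, the beta 4 integrin, by 1.94 ± 0.68 and 2.06 ± 0.68. In inputs 2 of the 15 passed, both higher with paclitaxel: Itgb4 by 1.61 ± 0.31 (adjusted p = 0.0248) and Dag1 by 1.00 ± 0.24 (adjusted p = 0.0488). Over all genes 1.46% were higher in paclitaxel inputs.

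Of 29 other matrix genes tested, 15 and 21 fell and 0 rose. Fbln2, Ogn and Fbln1 gave -3.17 ± 0.55, -2.72 ± 0.37 and -2.42 ± 0.69 in normal biosamples, and Efemp1 and Thbs1 gave -3.54 ± 0.53 and -3.10 ± 0.58 with paclitaxel. Of 19 proteases and inhibitors, 1 rose in each treatment, the membrane protease Mmp15 (1.12 ± 0.25 and 0.71 ± 0.25). In the same list 9 and 8 fell, among them the inhibitor Timp3 (-2.08 ± 0.25 and -2.18 ± 0.25). Of 15 genes for TGF-beta ligands, receptors and Smads, 8 and 7 fell and 0 rose, with Tgfbr2, the type II receptor, at -2.39 ± 0.66 and -2.13 ± 0.66. Between treatments, P4hb, the beta subunit of prolyl 4-hydroxylase, was higher in paclitaxel pulldowns by 1.62 ± 0.29 (limma adjusted p = 0.0146). In inputs Prelp, a proteoglycan of connective tissue, was higher by 2.01 ± 0.33 (adjusted p = 0.0167), and Adam17, a membrane sheddase, by 1.10 ± 0.26 (adjusted p = 0.0479).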

How the data were processed

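Per the labels' protocols, libraries were made from transcripts' 3′ ends, from input and TRAP RNA of 8 biosamples. The submitters' processing notes name FastQC 0.11.5, TopHat2 2.1.1, Bowtie2 2.2.9, Cufflinks 2.2.1 and GRCm38.p4; the strand setting is not given in the sources used here. The file headers call the deposited values TPM, but all columns have 1 common total and the low values of a library fall on even steps (98.0% to 99.6% of values, within 0.0051 CPM), so they are CPM, reads scaled to that total with no division by length. They were tested on the log scale and not as counts. The 2 subsamples of biosample 7 were averaged, and the authors' 2 merged columns were not used.

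Genes with at least 1 CPM in 4 of 16 libraries were fitted with limma 3.58.1 (R 4.3.3) on log2(CPM + 1) with an intensity trend, and p-values were adjusted by Benjamini-Hochberg over all 14214. Fold changes on this scale understate those of low genes. TRAP against input and the interaction used 1 fit with biosample as a block, since input and pulldown are aliquots of 1 homogenate per the labels' protocols; paclitaxel against normal was fitted within each fraction. Values by library are given for the 8 genes highest in inputs, genes passing between treatments, the 5 largest falls per pulldown comparison and the highest gene of each class. Of each pathway list, up to 3 of the largest passing changes are named. Others named are Col4a2 and Col25a1, chosen after their values were seen. The genes and lists were chosen with earlier results of these data known. The values of some genes are not reported here, though they count in the totals. Scripts were tested on simulated data. Alternatives covered the pseudocount, filter, scaling, trend, block, subsamples and leaving out biosamples.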

Additional observations from a re-analysis of the deposited data

Results flagged for a closer look

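Of 178 groups of 4 libraries with a mean of at least 1 CPM, 9 held a library whose gap to the nearest of the others passed Dixon's critical value as a share of the group's range (the gap); chance gives about 1 in 20. In normal pulldowns, biosample 4 stood above the others for Col4a4 (gap 0.974; 13.1 CPM against 0 to 0.34), Col22a1 (0.862; 6.2 against 0.05 to 0.9) and Col4a3 (0.847; 4.86 against 0.1 to 0.83). Biosample 3 stood above for Lamc3 (0.989; 10.69 against 0.05 to 0.17). In paclitaxel pulldowns, Col13a1 was at 4.35 CPM in biosample 8 and 0 in the others (gap 1), and Col7a1 at 4.91 in biosample 5 against 0 to 0.38 (0.923). In normal inputs, Loxl2 was at 45.45 CPM in biosample 3 against 13.6 to 16.07 (0.922), and Col1a2 at 1323 in biosample 1 against 634 to 729 (0.861). Col23a1 was at 5.33 CPM in normal input 2 against 12.5 to 13.1 (0.919).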

How the results depend on the processing

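No gene called changed direction under the 18 or 19 alternatives run for it (the block does not apply within a fraction, and a minimum of 5 CPM removes low genes). The 20 genes lower in normal pulldowns became 12 with median-ratio scaling, 9 with quantile normalization and 8 to 22 with 1 biosample left out. Over all genes the 4233 calls in either direction became 3118, 2558 and 2327 to 4356. The 38 lower with paclitaxel became 25 with quantile normalization, 21 without biosamples 1, 2, 5 and 6, and 27 to 39 with 1 biosample left out. There the 3963 calls over all genes became 2741, 1845 and 2049 to 4377. Without the biosample block, which pairs aliquots of 1 homogenate, 15 and 33 were lower, beside 3287 and 3119 calls in either direction over all genes. The 2 genes higher in paclitaxel inputs became 0 with no filter, 1 with quantile normalization, 4 without biosamples 1, 2, 5 and 6, and 0 to 3 with 1 biosample left out (0 without biosample 1 and 1 without biosample 5, 7 or 8). With no filter, and without biosample 1, 0 of all genes passed between inputs. The count of 0 between pulldowns and for the interaction was 0 in every setting. Scaling moved the median of all genes from -0.655 to -0.326 (median-ratio) and -0.08 (quantile) in normal and from -0.556 to -0.285 and -0.0665 in paclitaxel pulldowns, and the share of calls that were higher from 17.1% to 45.1% and 46% and from 17.6% to 39.3% and 42.4%. Between treatments that share went from 73% to 46.4% and 58.1% in pulldowns and from 88.8% to 75.8% and 79.8% in inputs. The median of the 52 genes moved as well. It went from -1.03 to -0.793 (median-ratio) and -0.369 (quantile) in normal pulldowns, and from -1.86 to -1.66 and -1.22 in paclitaxel pulldowns. The cause of these changes was not tested. A count model was planned but not run, since the file check did not accept the values as whole reads. Genes under the worth of 3 reads, 0.0917 to 0.703 CPM by library, cannot be told from 0.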
